A study of Homo sapiens with 9 samples.

Results

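AFAP1-AS1, a long noncoding RNA, and AFAP1, the protein-coding gene on the opposite strand, form 1 locus on chromosome 4. They were taken by symbol, as 2 of the 57733 genes listed for each of 9 libraries of newly made RNA. AFAP1-AS1 was chosen by its measured read counts, which were near 0 in both knockout clones, so its difference between clones and control is given as a description without a test. AFAP1 was taken for its place opposite AFAP1-AS1.

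The libraries came from PANC-1, a cell line from a pancreatic duct carcinoma. The lines were KO C22 and KO C28, clones made by CRISPR/Cas9 knockout of KDM6A (UTX), and WT, the control line that received no guide RNA. Each line had 1 BruUV-seq library and 2 Bru-seq libraries. In Bru-seq, cells took up 2 mM bromouridine for 30 min and the labelled RNA was captured with no chase, so reads show transcription in progress. BruUV-seq adds 100 J/m2 of ultraviolet light, which stalls polymerases and gathers the signal near the starts of genes. KDM6A removes a repressive methyl mark from histone H3. Each knockout line is a single clone. Whether replicates came from separate cultures is not stated in the labels, and p-values therefore cover the spread among these libraries alone, which may be technical.

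AFAP1 encodes an adaptor protein that cross-links actin filaments and binds Src-family kinases and protein kinase C. AFAP1-AS1 is known from several carcinomas, pancreatic duct carcinoma among them, in which its levels are often high. Antisense transcripts of this kind are read from the strand opposite to a coding gene, and a library that keeps strands apart can count each separately.

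Depth ran from 5.64 M to 31.1 M estimated reads in genes per library. Bru-seq KO C28 replicate 2 stood apart, with the lowest depth and with 46.5% of reads falling outside genes, where the other 8 libraries had 9.93% to 20.01%. KDM6A itself was transcribed at 0.211 to 1.20 RPKM (a read density scaled by gene length and sequencing depth) over the 6 clone libraries and at 0.792 to 1.13 RPKM over the 3 WT libraries, and gene-body reads do not show a small CRISPR lesion. All 6 epithelial and duct markers had more than 3 reads in every library, with a summed level of 106 to 419 CPM (reads scaled by sequencing depth, with TMM factors) in KO C22, 308 to 2554 CPM in KO C28 and 244 to 574 CPM in WT. Most of this sum came from KRT8, KRT18 and KRT19, and the markers did not move together. Mean Bru-seq levels in KO C22, KO C28 and WT were 34.3, 434 and 60.4 CPM for KRT19. In the same order they were 2.18, 6.50 and 12.5 CPM for EPCAM and 1.28, 5.81 and 8.44 CPM for CDH1. Markers of other cells summed to at most 2.76 CPM for acinar and islet cells, 8.12 CPM for leukocytes, 21.9 CPM for endothelium and 38.7 CPM for fibroblasts, and the insulin gene INS was at 0 in all libraries.

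AFAP1-AS1 (ENSG00000272620.1) lies on the plus strand of chromosome 4 from 7754090 to 7778928 in the deposited tables, whose processing notes name hg38 and GRCh38, and spans 24.8 kb. AFAP1 (ENSG00000196526.10) lies on the minus strand from 7758714 to 7939926 and spans 181 kb. The genes share 20215 bases, which is 81.4% of AFAP1-AS1 and 11.2% of AFAP1. AFAP1-AS1 starts 4.62 kb beyond the 3′ end of AFAP1 and runs into its last part, so the starts of the genes lie 186 kb apart. AFAP1-AS1 thus covers the end of AFAP1 and not its start.

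RefSeq lists 2 starts for AFAP1 in build GRCh38.p14. The windows around them, 250 bases before to 50 after the start, are shown because they mark where AFAP1 transcription begins relative to the antisense unit. The outer window is chr4:7939812-7940111 and the inner one chr4:7872259-7872558, both on the minus strand. Capitals mark the GC box (GGGCGG or CCGCCC on the other strand), bound by the general activator family of SP1, and the cAMP response element (TGACGTCA, the same on both strands).

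AFAP1 outer promoter: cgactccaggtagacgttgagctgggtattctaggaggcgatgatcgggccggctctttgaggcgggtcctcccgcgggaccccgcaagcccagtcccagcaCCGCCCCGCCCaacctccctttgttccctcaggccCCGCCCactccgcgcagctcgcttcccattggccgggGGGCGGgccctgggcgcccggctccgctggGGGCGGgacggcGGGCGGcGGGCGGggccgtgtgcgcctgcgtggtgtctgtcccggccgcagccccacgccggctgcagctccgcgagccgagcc

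AFAP1 inner promoter: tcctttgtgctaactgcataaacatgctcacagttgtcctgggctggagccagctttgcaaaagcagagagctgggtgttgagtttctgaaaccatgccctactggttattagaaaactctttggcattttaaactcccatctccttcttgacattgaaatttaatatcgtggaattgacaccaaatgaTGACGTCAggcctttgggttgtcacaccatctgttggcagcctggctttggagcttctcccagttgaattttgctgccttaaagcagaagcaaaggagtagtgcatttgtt

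The outer window held 7 GC boxes, 2 of them overlapping, and 36 CG dinucleotides, more than 87.3% of 35116 RefSeq promoter windows of this length. The inner window held no GC box, 1 cAMP response element and 2 CG dinucleotides. A GC box occurred in 45.0% of all windows and a cAMP response element in 1.85%, and the median window had 14 CG dinucleotides. These matches describe the letters only. The inner start lies 118 kb from the start of AFAP1-AS1 and 67.6 kb inside AFAP1, and reads summed over the gene body do not tell the 2 starts apart.

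In KO C22, AFAP1-AS1 gave 0 reads in BruUV-seq and 2 and 1 reads in Bru-seq. In KO C28 it gave 1 read in BruUV-seq and 1 and 0 reads in Bru-seq. In WT it gave 2464 reads in BruUV-seq and 1158 and 1602 reads in Bru-seq. Every clone library lay at or below 2 reads and every WT library at or above 1158, so the lines did not overlap, and in bulk libraries fewer transcribing cells and less RNA per cell cannot be told apart. Over the 3 libraries of a line, the scaled level was 0.0723% of WT in KO C22 (3 against 5224 reads, 95% exact binomial interval 0.0149% to 0.212%). In KO C28 it was 0.0651% of WT (2 against 5224 reads, interval 0.00788% to 0.235%). These intervals cover counting error only, and not the spread between libraries or between clones. They also treat each read as independent, while reads without molecular identifiers include PCR copies. In the libraries with 0 reads, 3 reads would have been 0.227 CPM in BruUV-seq KO C22 and 0.460 CPM in Bru-seq KO C28 replicate 2. Between KO C28 and KO C22 no fold is given, because all 6 libraries were under that limit of 3 reads.

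**Figure D1:**
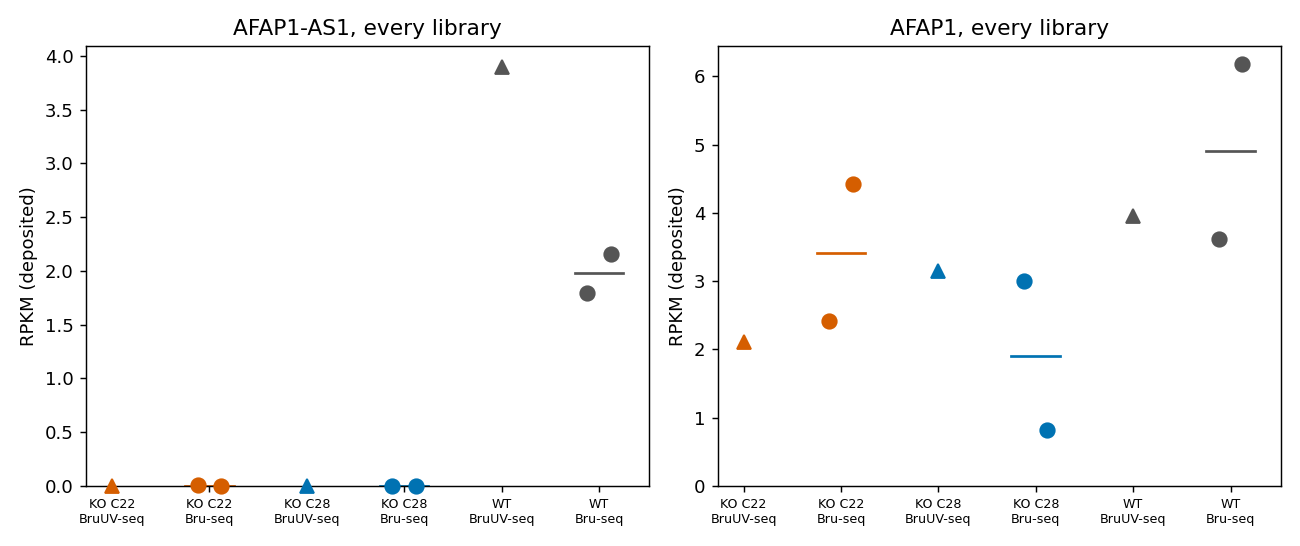
RPKM of AFAP1-AS1 (left) and AFAP1 (right) in each of the 9 libraries, on linear axes from 0; points are libraries (triangles BruUV-seq, circles Bru-seq) and lines the mean of the 2 Bru-seq libraries. AFAP1-AS1 is at or next to 0 in the 6 clone libraries and at 1.795 to 3.90 RPKM in WT, while AFAP1 has reads in every library.

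Per kb, AFAP1-AS1 in WT stood at 3.90 RPKM in BruUV-seq and at 1.98 ± 0.256 RPKM in Bru-seq (SD, n = 2). In the 3 WT libraries it lay above 82.9% to 92.4% of the genes with any signal, whereas in the 6 clone libraries it lay above 0% to 5.06% of them. Its level relative to AFAP1, both per kb, was 98.6% in BruUV-seq and 49.6% and 34.9% in Bru-seq of WT. In the clones this ratio was at most 0.146%.

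The level left in the clones was set beside the other genes with at least 100 reads in each of the 3 WT libraries, 10422 in all. It alone (0.0096% of them) had at most 3 reads in each of the 6 clone libraries, and no gene (0 of 7865, 0% of those with at least 100 reads in each clone library) showed the opposite pattern. Its highest clone library was at 0.187% of its lowest WT library on the CPM scale. The next genes by this measure, named after their values were seen, were CES1, a carboxylesterase, at 20.4%, and MAGI2-AS3, a further antisense RNA, at 21.7%. The gap between first and second place is a description, because the gene was selected for its loss.

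**Figure D2:**
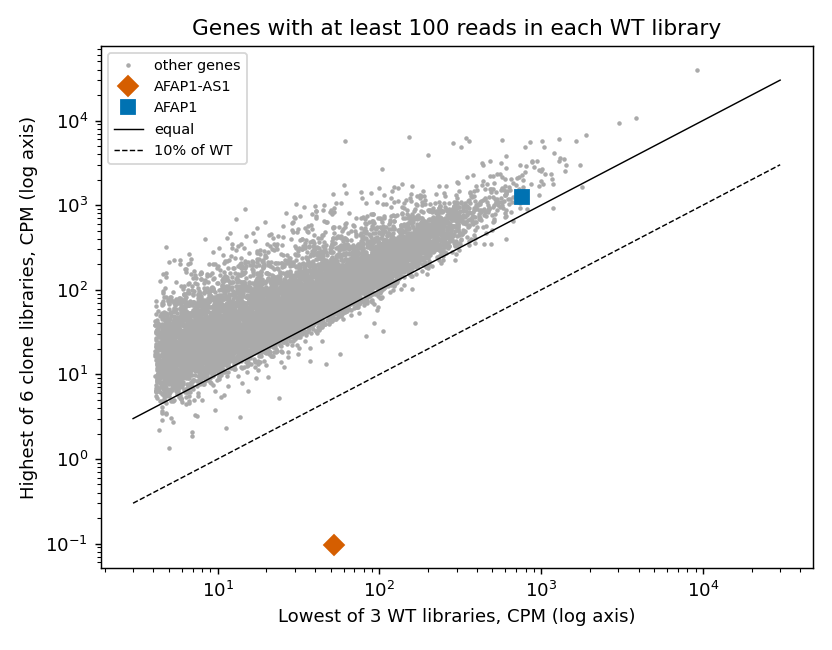
Highest of the 6 clone libraries against the lowest of the 3 WT libraries in CPM, both on log axes, for the 10422 genes with at least 100 reads in each WT library; the solid line marks equality and the dashed line 10% of WT. AFAP1-AS1 is the 1 gene under the dashed line, and AFAP1 lies within the main cloud.

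Reads on both strands were set side by side. In the 4 clone Bru-seq libraries AFAP1 had 49485 reads, of which 5520 would fall on the shared bases if reads were spread evenly over the gene. On the AFAP1-AS1 strand the same libraries had 4 reads. These are among the counts that chose the gene and are a description, and the even spread is an assumption, since the tables give no positions within a gene.

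AFAP1 went on being transcribed in every library. In KO C22 it gave 462 CPM in BruUV-seq and 487 and 1247 CPM in Bru-seq. In KO C28 it gave 583 CPM in BruUV-seq and 614 and 237 CPM in Bru-seq. In WT it gave 758 CPM in BruUV-seq and 767 and 1370 CPM in Bru-seq. Of the 6 clone libraries 5 were below the lowest WT library, but Bru-seq KO C22 replicate 2 was above 2 of the 3 WT libraries, and replicates of a line differed by 2.56-fold in KO C22, 2.59-fold in KO C28 and 1.79-fold in WT. Mean Bru-seq levels were 3.42 ± 1.42 RPKM in KO C22, 1.90 ± 1.54 RPKM in KO C28 and 4.90 ± 1.81 RPKM in WT (SD, n = 2 each), and these spreads overlap between all neighbours in that order.

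No difference in AFAP1 between lines passed the test. With all 9 libraries in 1 fit of 23443 genes, the log2 fold change was -0.41 (SE 0.56, edgeR adjusted p = 0.997) in KO C22 against WT. The 95% interval ran from 0.321 to 1.75 of the WT level, and the estimate was -0.07 without Bru-seq WT replicate 2 and -0.99 without Bru-seq KO C22 replicate 2. In KO C28 against WT it was -0.97 (SE 0.57, edgeR adjusted p = 0.515), with an interval of 0.216 to 1.21 of the WT level, and an estimate of -0.52 without Bru-seq KO C28 replicate 2, -1.40 without BruUV-seq KO C28 and -1.43 from Bru-seq alone. In KO C28 against KO C22 it was -0.56 (SE 0.57, edgeR adjusted p = 0.817), an interval of 0.287 to 1.61. Among all genes the test called 37 (0.158%) in KO C22 against WT, of which 25 were higher (0.107%) and 12 lower (0.0512%). AFAP1-AS1 was not taken out of these or the following counts over all genes. In KO C28 against WT it called 23 (0.0981%), of which 17 were higher (0.0725%) and 6 lower (0.0256%), and 10 genes (0.0427%) were called in the same direction in both clones, whose comparisons share the WT libraries. It called 0 genes (0%) in KO C28 against KO C22, where 1420 genes had an unadjusted p below 0.05 and DESeq2 called 236. The intervals are wide and do not show that AFAP1 was transcribed alike in the 3 lines.

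**Figure D3:**
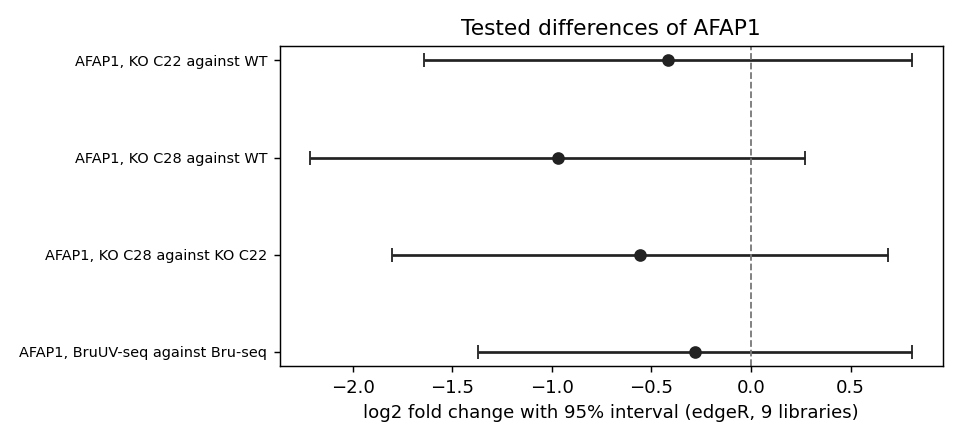
Log2 fold changes of AFAP1 between lines and between assays, from the edgeR fit of 9 libraries; points are estimates and bars 95% intervals. Every interval crosses 0, and the AFAP1 estimate is lowest, at -0.97, in KO C28 against WT.

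Levels of the genes were also set against each other over libraries. Their log2 CPM correlated at r = 0.456 over the 9 libraries, which put AFAP1 at place 1627 among 11810 genes with a mean of at least 100 reads. The closest to AFAP1-AS1 were MAGI2-AS3 (r = 0.961), TRNP1, a nuclear protein gene (0.956), LYN, a Src-family kinase (0.944), PTPN13, a tyrosine phosphatase (0.942), and COL5A2, a fibrillar collagen chain (0.941). They share with AFAP1-AS1 a higher level in WT, but kept reads in the clones: LYN stood at 5.37 to 8.24 CPM in KO C22, 9.09 to 14.6 CPM in KO C28 and 37.1 to 54.3 CPM in WT. The genes closest to AFAP1 were SPRED2, an inhibitor of Ras signalling (0.984), CCNK, a cyclin of transcription kinases (0.980), AC097376.2 (0.979), TFDP2, a partner of E2F factors (0.979), and CCNJL (0.978). Of these, SPRED2 stood at 245 to 870 CPM in KO C22, 132 to 365 CPM in KO C28 and 412 to 665 CPM in WT. For SPRED2 as for AFAP1, the KO C22 range overlapped those of KO C28 and WT, and the KO C28 range lay below that of WT. The 9 points share lines, assays and depth, and the correlations are descriptions.

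Genes around the locus were taken as context. Within 1 Mb on either side the tables list 35 other genes, of which 13 had no read in any library and 14 were abundant enough to be tested. None of the 14 passed in KO C22 or in KO C28 against WT. By unadjusted p below 0.05 the counts were 1 of 14 in KO C22 and 0 of 14 in KO C28, where 5.35% and 10.7% of all genes tested in the same clones passed. DESeq2 called 0 of the 14 in both clones, and 347 genes in KO C22 and 685 in KO C28 over the whole table. The median log2 fold change of the 14 was -0.27 in KO C22 and -0.39 in KO C28, against 0.03 and 0.08 over all genes tested. Only 7 of the 14 had a mean of at least 100 reads. The medians include weak genes such as HTRA3, with a mean of 4.56 reads and an SE of 2.13 in KO C22 against WT. A shift of the region was not tested.

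SORCS2, a sorting receptor of neurons, ends 11.3 kb before the start of AFAP1-AS1 on the same strand. It gave 2.72 CPM in BruUV-seq and 8.34 and 5.04 CPM in Bru-seq of KO C22. In KO C28 it gave 4.68 CPM in BruUV-seq and 1.23 and 86.9 CPM in Bru-seq. In WT it gave 4.08 CPM in BruUV-seq and 2.02 and 9.04 CPM in Bru-seq. Bru-seq KO C28 replicate 2, the library that stood apart, was alone in its high level. The log2 fold change in KO C28 against WT was 2.17 (SE 1.19, edgeR adjusted p = 0.495) with that library and -0.64 without it, and in KO C22 it was -0.10 (SE 1.10, edgeR adjusted p = 0.998).

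The other 6 neighbours with a mean of at least 100 reads stood at 59.0% to 111% of WT in KO C22 and 65.4% to 135% in KO C28, pooled over the 3 libraries of a line. Upstream of AFAP1-AS1, KIAA0232 was at 90.3% of WT in KO C22 and 65.4% in KO C28. TBC1D14, which restrains autophagosome formation, was at 111% in KO C22 and 97.2% in KO C28, and GRPEL1, a cochaperone of the mitochondrial import motor, at 103% and 99.2% in the same clones. TADA2B, an adaptor of the SAGA histone acetyltransferase, was at 110% in KO C22 and 135% in KO C28. On the far side of AFAP1, TRMT44, a tRNA methyltransferase, was at 59.0% in KO C22 and 68.9% in KO C28, and ACOX3, a peroxisomal oxidase, at 80.6% and 83.7% in the same clones. AFAP1 itself, between them, was at 80.7% in KO C22 and 55.6% in KO C28, inside the range of its neighbours in KO C22 and below it in KO C28.

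**Figure D4:**
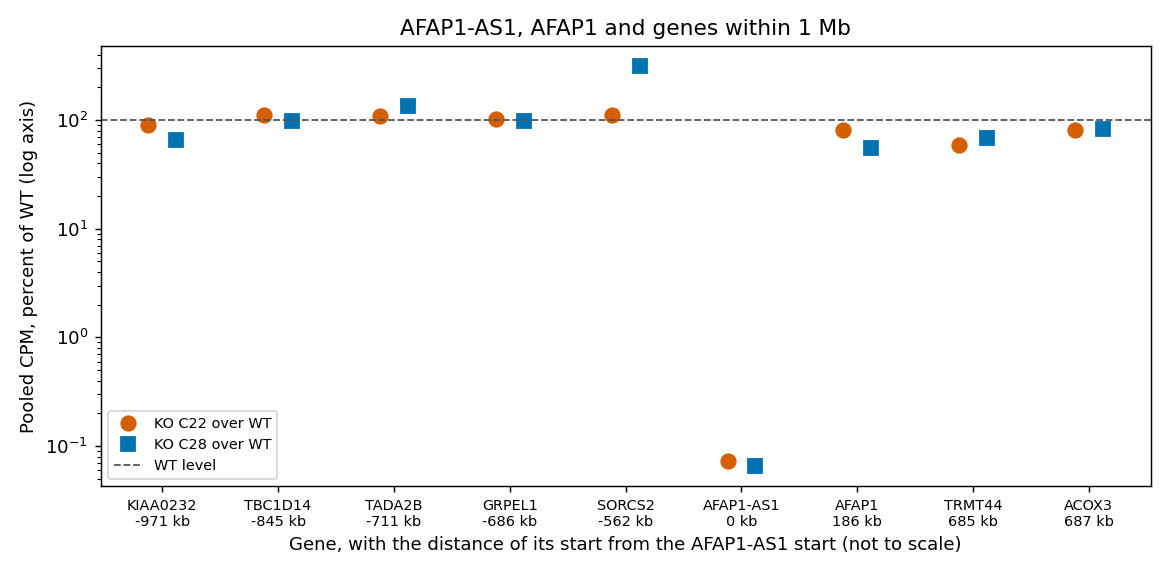
Level in each clone as percent of WT (pooled CPM of 3 libraries a line, log axis) for AFAP1-AS1, AFAP1 and the 7 neighbours with a mean of at least 100 reads, ordered by start along chromosome 4; circles are KO C22, squares KO C28 and the dashed line is WT. AFAP1-AS1 is at 0.0723% and 0.0651%, and the other genes lie between 55.6% and 315%, the highest being SORCS2 in KO C28.

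Of the weaker neighbours, SH3TC1, named after its values were seen, gave 25 reads in KO C22, 107 in KO C28 and 242 in WT over the 3 libraries of a line, with a log2 fold change of -2.90 (SE 0.96, edgeR adjusted p = 0.612) in KO C22. HTRA3, a serine protease gene also named after its values were seen, gave 2 reads in KO C22, 7 in KO C28 and 32 in WT (edgeR adjusted p = 0.995 in KO C22), too few for a fold. Neither passed the test. Between KO C28 and KO C22 the test also called 0 of the 14, with 1 at an unadjusted p below 0.05 and 0 by DESeq2.

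AFAP1-AS1 is 1 of 1244 genes whose symbols mark them as antisense RNAs. Of these, 192 had at least 100 reads in each WT library, and 21 of the 192 had a higher mean RPKM than AFAP1-AS1 in Bru-seq of WT. For 151 of them the gene on the other strand also had at least 100 reads in each WT library. AFAP1-AS1 had 40.3% of the RPKM of AFAP1 in WT, against a median of 36.8% over these pairs, which put it at place 74 of 151. In WT the pair was therefore near the middle of such pairs, and the ratio in the clones was not ranked. By the highest clone library in percent of the lowest WT library, the measure given above for all genes, the next of the 151 after AFAP1-AS1 were MAGI2-AS3 at 21.7% and, named after its values were seen, RNF139-AS1 at 77.7%.

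Over the other antisense RNAs, 682 were tested. In KO C22 against WT 0 rose and 1 fell, where 0.107% and 0.0512% of all genes did. At an unadjusted p below 0.05 there were 32 of 682, against 1254 of all 23443 genes (5.35%), and DESeq2 called 5. The 1 was MAGI2-AS3, at 2.04 CPM in BruUV-seq and 3.93 ± 0.511 CPM in Bru-seq of KO C22, against 24.0 CPM in BruUV-seq and 33.7 ± 10.1 CPM in Bru-seq of WT (SD, n = 2 each). Its log2 fold change was -3.25 (SE 0.48, edgeR adjusted p = 0.0296), and the call was lost in 7 of 9 fits that left out 1 library, at adjusted p from 0.0576 to 0.266. These were the fits without any 1 library of KO C22 or WT or without BruUV-seq KO C28. In KO C28 against WT MAGI2-AS3 was at -2.94 (edgeR adjusted p = 0.0544), and edgeR called 0 of the 682. There 57 had an unadjusted p below 0.05, against 2518 of all genes (10.7%), and DESeq2 called 10. The median log2 fold change of the 682 was -0.11 in KO C22 and 0.09 in KO C28, against 0.03 and 0.08 over all genes tested.

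The assays were compared within each line. In WT, AFAP1-AS1 had 102 CPM in BruUV-seq and 58.8 ± 9.48 CPM in Bru-seq (SD, n = 2), a ratio of 1.74. For AFAP1 the ratio of BruUV-seq to mean Bru-seq was 0.533 in KO C22, 1.37 in KO C28 and 0.710 in WT. The AFAP1-AS1 ratio sets 1 library against 2 and has no test, and AFAP1 had no common direction over the lines. Over all lines the log2 difference of AFAP1 was -0.28 (SE 0.50, edgeR adjusted p = 0.742). The test called 1 gene (0.00427%) between assays, with 5476 at an unadjusted p below 0.05 and 4109 called by DESeq2. By length, the median log2 difference was -0.14 over 2387 genes of 20 to 30 kb and -0.91 over 968 genes of 150 to 220 kb, the classes of AFAP1-AS1 and AFAP1. No gene of either class was called by edgeR.

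Relatives and partners of AFAP1 were counted next. AFAP1L1 and AFAP1L2, its paralogs, were both tested and neither passed in either clone, nor by unadjusted p below 0.05 or by DESeq2. AFAP1L1 had a log2 fold change of 0.45 (SE 0.39) in KO C22 against WT and -0.78 (SE 0.39) in KO C28 against WT. For AFAP1L2 the values were 0.06 in KO C22 and -0.18 in KO C28, with an SE of 0.38 for both.

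Among 11 tested Src-family kinases and their regulators, the family to which the AFAP1 partner SRC belongs, 0 rose and 1 fell in KO C22 against WT, where 0.0512% of all genes fell and 1 of the 11 had an unadjusted p below 0.05 (5.35% of all genes). It was LYN, a Src-family kinase, at 5.37 CPM in BruUV-seq and 6.996 ± 1.76 CPM in Bru-seq of KO C22, against 39.1 CPM in BruUV-seq and 45.7 ± 12.1 CPM in Bru-seq of WT (SD, n = 2 each). Its log2 fold change was -2.76 (SE 0.42, edgeR adjusted p = 0.0349). The call was lost in 7 of 9 fits that left out 1 library, at adjusted p from 0.0624 to 0.264, the same 7 as for MAGI2-AS3. In KO C28 the edgeR test called 0 of the 11, with 1 at an unadjusted p below 0.05 (10.7% of all genes) and 1 by DESeq2, LYN in both, at -1.91 (edgeR adjusted p = 0.169). The median of the 11 was 0.04 in KO C22 and -0.18 in KO C28, against 0.03 and 0.08 over all genes tested. Of 9 protein kinase C genes edgeR called 0 in both clones, with 0 in KO C22 and 2 in KO C28 at an unadjusted p below 0.05 (5.35% and 10.7% of all genes in the same clones) and 0 by DESeq2, and medians of -0.11 in KO C22 and -0.14 in KO C28.

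Of 20 genes of actin filaments and stress fibres, the structures AFAP1 binds, edgeR called 0 in both clones. At an unadjusted p below 0.05 there were 3 in KO C22 and 2 in KO C28, against 5.35% and 10.7% of all genes in the same clones, and DESeq2 called 1 in KO C22 (TPM1, a tropomyosin) and 0 in KO C28. Their median was 0.48 in KO C22 and 0.03 in KO C28.

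AFAP1-AS1 was last set beside 12 tested long noncoding RNAs known from cancers. None was called by edgeR in either clone, with 2 at an unadjusted p below 0.05 in each (5.35% of all genes in KO C22 and 10.7% in KO C28) and 0 in KO C22 and 1 in KO C28 (H19) by DESeq2. MALAT1, a nuclear speckle RNA, had a log2 fold change of 0.53 (SE 1.02) in KO C22 against WT and 0.42 (SE 1.02) in KO C28. NEAT1, the scaffold of paraspeckles, was at -0.77 (SE 0.96) in KO C22 against WT and at -1.62 (SE 0.98) in KO C28. GAS5, a snoRNA host gene, was at -1.27 (SE 0.55) in KO C22 against WT and at -0.93 (SE 0.54) in KO C28. The median of the 12 was -0.10 in KO C22 and -0.35 in KO C28.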

How the data were processed

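Newly made RNA of PANC-1 lines was sequenced in 9 libraries, 1 BruUV-seq and 2 Bru-seq for each of KO C22, KO C28 and WT. The authors deposited an estimated count of reads and an RPKM value per gene and library. The tables have no header, and these units were read from the values: the first are not all whole and are unscaled, and the second equal them per kb of the listed length over 1 total a library. The labels do not tell how the authors derived the estimated counts. The submitters' processing notes name CASAVA 1.8.2, Bowtie2 2.3.3, STAR 2.5.3a and bedtools 2.16.2 with hg38 and GRCh38; their roles and the annotation release are not given in the sources used here.

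Estimated counts were rounded to whole numbers and fitted with edgeR 4.0.16 in R 4.3.3 (quasi-likelihood test, terms for line and assay, filterByExpr, TMM scaling, Benjamini-Hochberg adjusted p below 0.05), on all 23443 genes that passed the filter. AFAP1-AS1 passed it only through the WT libraries. CPM is reads scaled by TMM-adjusted library size, and log2 CPM for correlations used a prior count of 2. The biological coefficient of variation was 70.9%. Levels in percent of WT pool the reads of a line's 3 libraries, with exact binomial intervals. RPKM values were used as deposited. The code of the fit was tried on simulated counts, with large changes planted in KO C22 alone in genes of above-median level. Such counts do not show how well the test finds smaller differences in these libraries.

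The members and gene lists were chosen with earlier results of these data known. Named genes were the members, neighbours with a mean of at least 100 reads, genes called within a list with fixed examples, and the 5 genes closest to each member by Pearson correlation. Same-numbered Bru-seq libraries deviated together with correlations of 0.428 (KO C22 with WT), 0.008 (KO C28 with WT) and -0.48 (KO C28 with KO C22), so the numbers were not taken as pairs. Alternatives were DESeq2 1.42.0, other filters and scalings, a replicate block, Bru-seq alone and leaving out each library. Promoter windows are from RefSeq, GRCh38.p14.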

Additional observations from a re-analysis of the deposited data

How the results depend on the processing

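The level of AFAP1-AS1 in percent of WT ranged from 0.0380% to 0.0946% in KO C22 and from 0.0534% to 0.0813% in KO C28 when 1 library was left out, and in KO C22 was 0% from BruUV-seq alone and 0.118% from Bru-seq alone. None of the alternative tests of AFAP1 between lines or between assays was called. For neighbours with a mean of at least 100 reads, none of 210 alternative tests against WT was called. The lowest was SORCS2 in KO C28 with no filter on low counts (edgeR adjusted p = 0.0547). Weaker neighbours are not in this count. Counts of genes called, from which AFAP1-AS1 was not taken out, are given next. In the order KO C22 against WT, KO C28 against WT, KO C28 against KO C22 and BruUV-seq against Bru-seq, they were 272, 1100, 230 and 2326 with no filter on low counts, and 347, 685, 236 and 4109 with DESeq2. With a mean of at least 50 reads they were 42 in KO C28 against WT and 21 between assays. Bru-seq alone called 1 in each clone against WT, and LYN and MAGI2-AS3 lost their calls there. Leaving out 1 library gave 3 to 142, 1 to 67, 0 to 18 and 0 to 3305, the highest of each without Bru-seq KO C28 replicate 2. With the replicate number as a block, 38 genes were called in KO C28 against WT and 864 between assays, and AFAP1 was at -0.45 in KO C22 and -0.87 in KO C28 against WT.

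When 1 library was left out, AFAP1 ranged from -0.99 to -0.07 in KO C22 against WT, from -1.40 to -0.52 in KO C28 against WT and from -0.69 to 0.11 between assays. AFAP1-AS1 between assays ranged from -0.75 to 0.77, a fit that rests on 1 BruUV-seq and 2 Bru-seq WT libraries and from which nothing is read. Signs of uncalled neighbours turned. In KO C22, leaving out 1 library gave -0.27 to 0.41 for TBC1D14, -0.00021 to 0.39 for TADA2B, -0.39 to 0.35 for GRPEL1, -0.59 to 0.54 for SORCS2 and -0.55 to 0.060 for ACOX3, and in KO C28 -0.39 to 0.17 for GRPEL1 and -0.64 to 2.85 for SORCS2. Bru-seq alone gave -0.037 for TADA2B, -0.41 for GRPEL1 and 0.32 for SORCS2 in KO C22, the block gave 0.60 for SORCS2 in KO C22, and a mean of at least 50 reads gave 0.016 for GRPEL1 in KO C28. The cause was not tested.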
